A study of Mus musculus with 49 samples.

Results

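The cytosolic ribosomal protein (RP) genes encode the protein components of the ribosomes that translate nuclear-encoded mRNAs. They were taken as the protein-coding genes of the GRCm38 annotation whose symbol is Rpl or Rps followed by a number, with the suffixes a, l and x allowed, together with Rplp0, Rplp1, Rplp2 and Rpsa. This rule gave 83 of the 54838 genes in the count tables, 51 for the large ribosomal subunit and 32 for the small one, and all 83 passed the filter on low counts. The rule used no expression value. It leaves out, among others, Fau and Rpl36al, which also encode ribosomal proteins and are given with the related mRNAs.

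Every ribosome needs about equal numbers of nearly all of these proteins, and in growing cells their mRNAs are among the most abundant. Many RP mRNAs start with a terminal oligopyrimidine (TOP) tract, an unbroken run of C and T through which their translation is held back when mTOR is inactive. At the late 2-cell stage a mouse embryo contains maternal mRNA laid down in the oocyte and mRNA from its own newly activated genome, and read counts do not separate them. TBP binds the TATA box and takes part in initiation by each of the nuclear RNA polymerases, whereas FOXJ3 is a forkhead transcription factor.

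Single late 2-cell embryos of the cross F1(C57BL/6JxCBA/H) were examined by Smart-seq+5', a poly(A)-primed protocol in which only the reads of transcript 5' ends were counted. The protein was removed by Trim-Away, in which an injected antibody directs its target to the ubiquitin ligase TRIM21. All 4 groups shared the genotype, 2 injections into the zygote (antibody or IgG, then mCherry-Trim21 mRNA 4 h later) and collection 48 h after hCG, so that the CONTROL embryos also carried the TRIM21 construct. TBP LOF (loss of function) embryos received a monoclonal antibody against TBP and were compared with mIgG CONTROL embryos given mouse IgG. FOXJ3 LOF embryos received a rabbit polyclonal antibody against FOXJ3 and were compared with rIgG CONTROL embryos given rabbit IgG, in 2 library batches that used separate aliquots of lysis buffer. Of 49 embryos, 47 passed quality control: 9 TBP LOF, 9 mIgG CONTROL, 16 FOXJ3 LOF and 13 rIgG CONTROL. The labels and the study's methods differ on how many embryos of the TBP experiment were LOF and how many CONTROL before quality control, and the labels were used. They do not say which embryos of the TBP experiment were collected together, so p-values measure the spread between single embryos.

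Between 1103569 and 5434808 reads were counted per embryo that passed quality control. All 8 late 2-cell markers and all 6 oocyte-derived markers had reads in every group. Levels are given in CPM, counts scaled to a common library total, so they are relative to the other reads of the library. Reads of ERCC spike-ins, RNAs added with the lysis buffer, took a median of 4.38% in TBP LOF and 2.82% in mIgG CONTROL embryos. Marker levels per ERCC read were not computed, so the CPM ranges do not show a change in amount per embryo. The summed late 2-cell markers were at 260 to 502 CPM in TBP LOF and 112 to 321 CPM in mIgG CONTROL embryos, with overlap. Zfp352 gave the largest part of this sum (159 and 74.9 CPM on average). Zscan4c and Tdpoz4 of the same list were at 4.89 and 3.62 CPM in TBP LOF and 8.24 and 3.69 CPM in mIgG CONTROL. The summed oocyte-derived markers were at 503 to 935 CPM in TBP LOF and 307 to 492 CPM in mIgG CONTROL, without overlap. Bmp15 gave most of the oocyte-derived sum (433 and 190 CPM on average), and Zp3 of the same list was at 18.6 CPM in TBP LOF and 44.3 CPM in mIgG CONTROL. Of 10 markers of cumulus and granulosa cells, 5 (Fshr, Has2, Ptx3, Inha and Dcn) were at 0 in both groups of the TBP experiment. The other 5 had reads in both groups. The summed level was 12.2 to 37.5 CPM in TBP LOF and 17.0 to 70.7 CPM in mIgG CONTROL embryos. Amhr2 gave most of this sum (15.985 CPM on average in TBP LOF and 23.439 CPM in mIgG CONTROL). Tnfaip6 was at 1.16 CPM in TBP LOF and 4.58 CPM in mIgG CONTROL. The part of these marker levels in the results below was not tested. Trim-Away acts on the protein, so the mRNA of its target does not check the depletion. Tbp mRNA was at 4.98 to 110 CPM (median 58.7) in TBP LOF and 93.0 to 255 CPM (median 137) in mIgG CONTROL embryos.

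RefSeq promoter windows (GRCm38.p6) were found for 63 of the 83 RP genes. The stretches from 80 bases before the annotated start to 50 bases from it are shown for 8 genes, chosen with their values known to span the changes described further on. Capitals mark TATAA before the start and a run of at least 8 C or T around it. Rpl22l1 (chr3:28805428-28805557, plus strand) and its paralog Rpl22 (chr4:152325646-152325775, plus strand; 1 of 2 RefSeq windows) are shown because the share of the paralog in this pair differed most between the groups. Rpl14 (chr9:120571437-120571566, plus strand) and Rpl38 (chr11:114668500-114668629, plus strand) had the smallest adjusted p in TBP LOF embryos. Rps18 (chr17:33955616-33955745, minus strand) and Rps27 (chr3:90213599-90213728, minus strand) carried TATAA, and Rpl41 (chr10:128549119-128549248, minus strand) and Rplp0 (chr5:115559387-115559516, plus strand) were among the few members not lower in TBP LOF embryos.
Rpl22l1: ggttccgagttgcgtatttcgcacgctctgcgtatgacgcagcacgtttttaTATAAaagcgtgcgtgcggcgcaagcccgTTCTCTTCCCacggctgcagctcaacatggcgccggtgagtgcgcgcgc
Rpl22: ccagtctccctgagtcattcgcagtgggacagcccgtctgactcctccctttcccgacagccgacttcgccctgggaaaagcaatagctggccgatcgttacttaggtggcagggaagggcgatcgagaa
Rpl14: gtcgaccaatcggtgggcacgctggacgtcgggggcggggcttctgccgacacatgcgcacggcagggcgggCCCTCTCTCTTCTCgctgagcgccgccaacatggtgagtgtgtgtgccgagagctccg
Rpl38: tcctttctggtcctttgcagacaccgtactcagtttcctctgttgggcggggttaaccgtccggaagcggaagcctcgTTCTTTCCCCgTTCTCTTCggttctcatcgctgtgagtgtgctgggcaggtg
Rps18: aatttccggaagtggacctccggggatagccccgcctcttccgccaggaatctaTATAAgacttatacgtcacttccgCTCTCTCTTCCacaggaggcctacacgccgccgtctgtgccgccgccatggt
Rps27: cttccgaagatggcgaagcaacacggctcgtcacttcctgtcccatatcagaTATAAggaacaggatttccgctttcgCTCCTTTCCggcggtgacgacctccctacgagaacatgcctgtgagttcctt
Rpl41: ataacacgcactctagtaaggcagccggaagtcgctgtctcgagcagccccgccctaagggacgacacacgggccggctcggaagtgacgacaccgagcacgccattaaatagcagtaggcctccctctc
Rplp0: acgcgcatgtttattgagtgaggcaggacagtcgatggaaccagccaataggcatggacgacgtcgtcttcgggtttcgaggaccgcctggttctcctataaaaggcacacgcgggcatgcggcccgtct

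TATAA stood on the sense strand within 50 bases before the annotated start in 5 of the 63 promoters (7.94%), beside 5.89% of the promoters of 27025 genes. The 5 genes were Rpl22l1, Rps18, Rps9, Rps27 and Rps26. Its first base lay 28 bases before the start in Rpl22l1 and Rps27 and 26 bases before it in Rps18. In Rplp0 the letters TATAA began at base 18 after the annotated start, which lies outside the window searched. A run of at least 8 C or T overlapped the stretch from 10 bases before to 20 bases after the start in 31 RP promoters (49.2%, against 19.2% of all promoters). CCGGAA, the core of the motif bound by ETS factors such as GABPA, was present on either strand of the 300 bases in 35 (55.6%, against 16.7%). These counts describe letters in a window and do not show binding, and an annotated start can differ from the start used in the embryo.

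The RP genes together took a smaller share of reads in every TBP LOF embryo than in any mIgG CONTROL embryo. The rIgG CONTROL embryos of the FOXJ3 experiment spanned 0.734% to 3.44% and so also reached into the TBP LOF range. They held 1.23% ± 0.502 of counted reads in TBP LOF (SD, n = 9) and 2.46% ± 0.392 in mIgG CONTROL embryos (SD, n = 9), so that the LOF mean was 49.8% of the CONTROL mean. The lowest, median and highest shares were 0.540%, 1.26% and 1.88% in TBP LOF and 1.90%, 2.52% and 3.20% in CONTROL, and the groups did not overlap. Among TBP LOF embryos, numbers 9, 1 and 2 had the lowest shares (0.540%, 0.638% and 0.761%) and numbers 7 and 10 the highest (1.88% and 1.85%). Numbers 9, 1 and 2 also had the largest shares of mitochondrial reads (9.02%, 8.73% and 9.85%), and numbers 7 and 10 the smallest (4.93% and 4.69%). The mitochondrial share spanned 4.69% to 9.85% in TBP LOF (median 6.63%) and 3.00% to 8.51% in mIgG CONTROL embryos (median 5.76%), and mIgG CONTROL 3, at 8.51%, had an RP share of 2.29%. Its part in the RP share was not tested. Relative to reads of nuclear protein-coding genes, the shares were 3.498% ± 1.201 and 5.98% ± 0.549, and 8 of 9 TBP LOF embryos lay under every CONTROL embryo. Relative to ERCC spike-in reads, added with the lysis buffer, the RP genes gave 0.302 ± 0.138 reads per ERCC read in TBP LOF and 0.911 ± 0.222 in CONTROL, or 33.1% of CONTROL. Large-subunit genes (0.674% against 1.29% of counted reads) and small-subunit genes (0.553% against 1.17%) were lower side by side. The libraries were made from whole late 2-cell embryos, so levels in single cells were not measured.

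**Figure D1:**
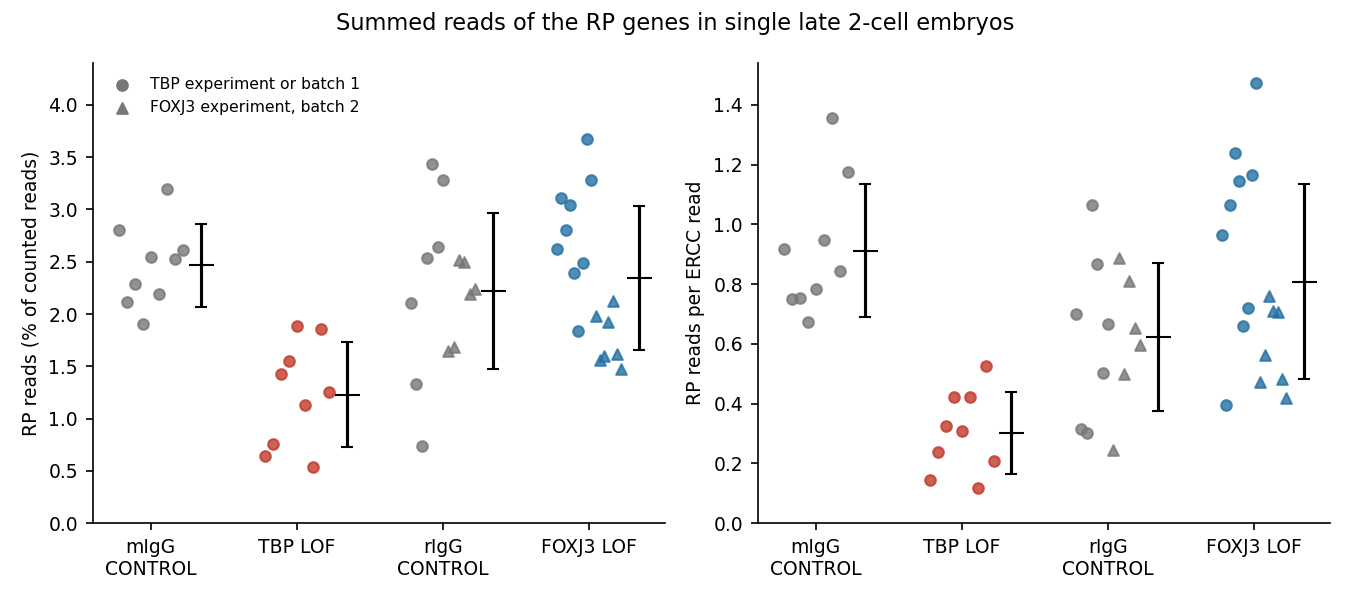
Summed RP reads of each embryo as a percentage of counted reads (left) and per ERCC read (right) in the 4 groups. Each point is an embryo, triangles are batch 2 of the FOXJ3 experiment, and black bars give mean ± SD. TBP LOF embryos sit between 0.540% and 1.88% of counted reads, under all mIgG CONTROL embryos, whereas FOXJ3 LOF and rIgG CONTROL embryos overlap.

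Tested one by one under ERCC scaling with edgeR's quasi-likelihood test and Benjamini-Hochberg adjustment over 19356 genes and transposable element (TE) families, 77 of the 83 RP genes were lower in TBP LOF embryos and 0 were higher (adjusted p under 0.05). Of all features tested, 29.7% were lower and 1.34% higher. RP genes have many reads, and among the 2026 features with a mean of at least 100 normalized counts, a comparison added after the data had been seen, 61.2% were lower and 1.09% higher, beside 75 of the 80 RP genes above that mean. The median log2 fold change was -1.79 over the RP genes, -0.70 over all genes and -1.08 over the features with a mean of at least 100 counts. The median standard error of the members was 0.317. The median member stood at 29.0% of its CONTROL level, 75 members were under 50% and 28 under 25%. The shares of all features under these limits were not counted. The median of -1.08 for features with at least 100 counts also lies under 50% of CONTROL. For 56 members every TBP LOF embryo lay under every CONTROL embryo, which held for 6.69% of all features. In 0 members every TBP LOF embryo was higher than every CONTROL embryo (0.0103% of features).

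ERCC scaling measures change per amount of spike-in and TMM scaling measures it relative to the other genes of the library, and the median of all genes moved from -0.70 under ERCC to 0.13 under TMM. Under TMM scaling 56 RP genes were lower and 1, Rplp0, was higher, where 12.7% of all features were lower and 12.8% higher. Among the 1848 features with a mean of at least 100 counts, 31.9% were lower and 24.8% higher under TMM, beside 55 lower and 1 higher of 80 RP genes. The median over the members was -0.90, with 77 members below 0 and 6 above, and the median over these 1848 features was -0.16. All 56 were also among the 77 lower under ERCC scaling. For 16 members every TBP LOF embryo was under every CONTROL embryo under TMM (1.87% of all features), and for 0 above every one (0.997%).

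**Figure D2:**
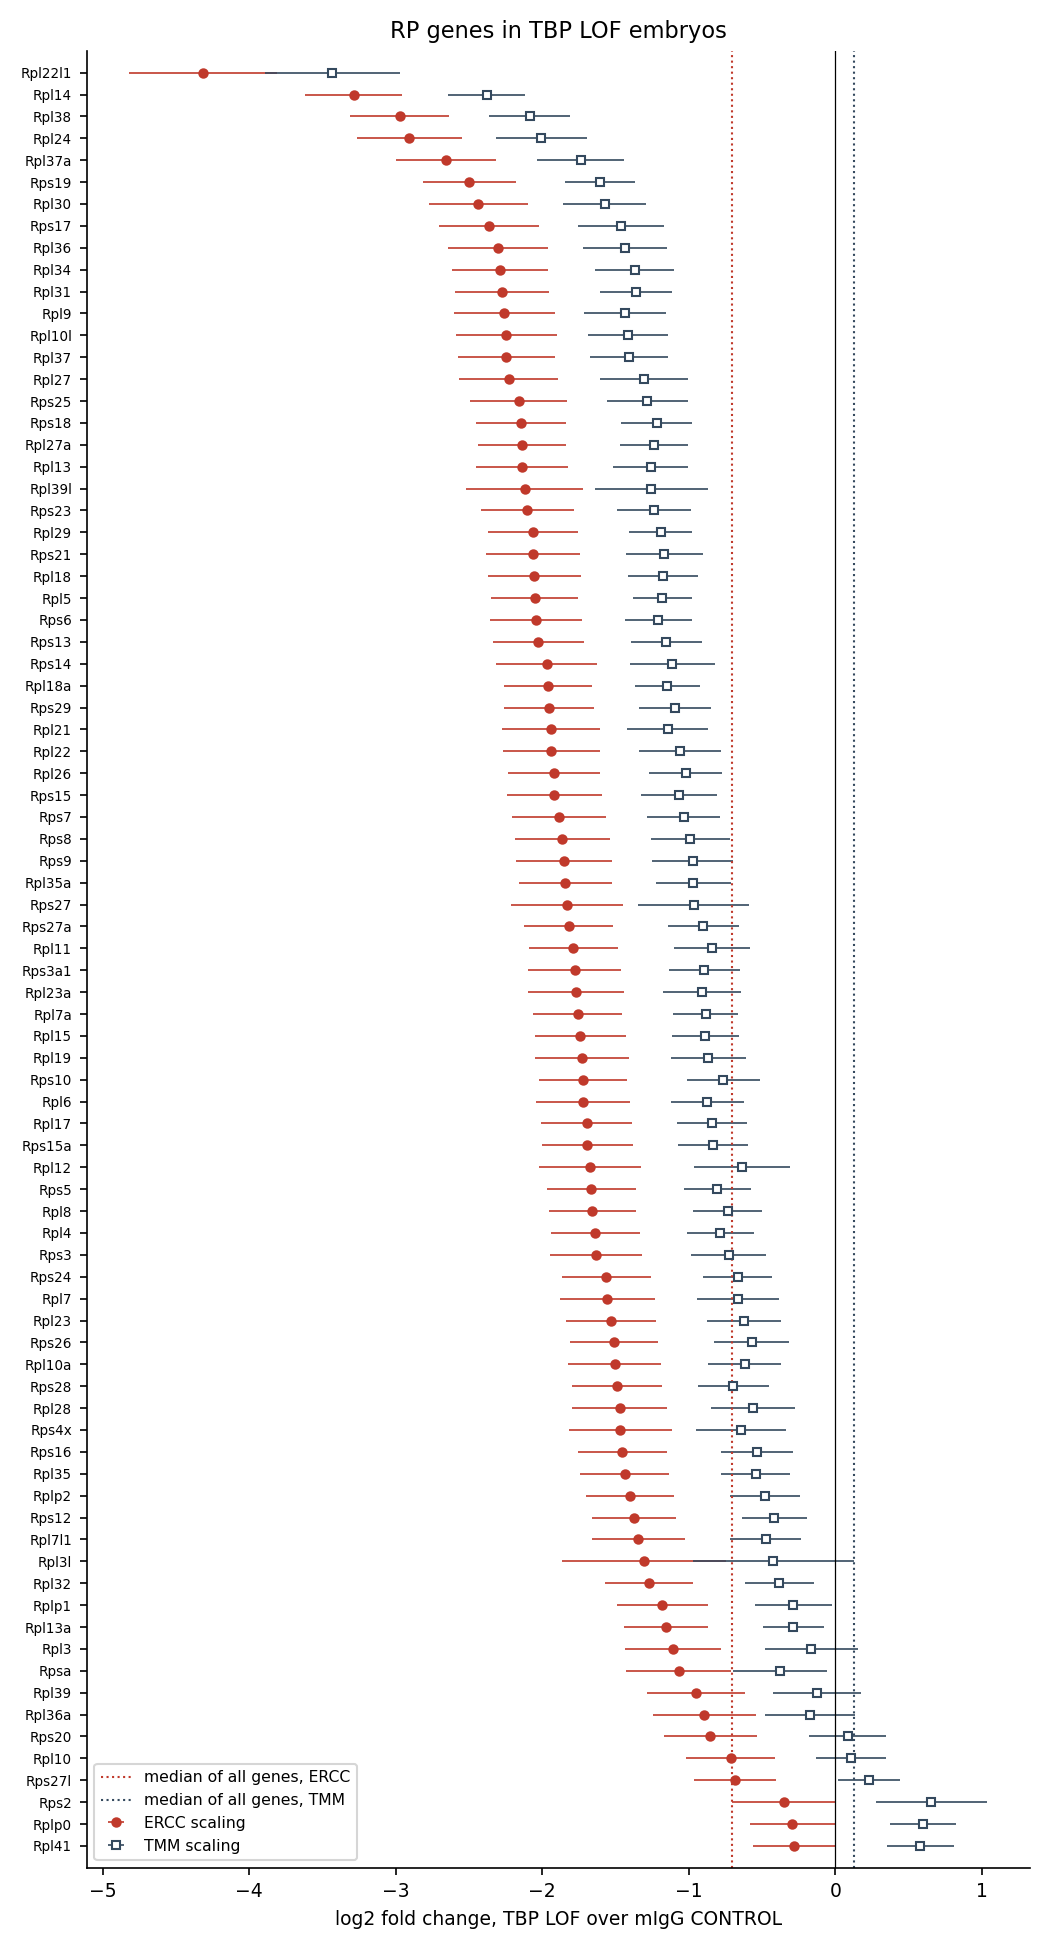
Log2 fold change of 82 of the 83 RP genes in TBP LOF over mIgG CONTROL embryos under ERCC scaling (filled circles) and TMM scaling (open squares), with standard errors. Dotted lines give the median of all genes, -0.70 under ERCC and 0.13 under TMM. The members run from Rpl22l1 (-4.32 under ERCC) to Rpl41 (-0.28 under ERCC, 0.58 under TMM).

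The 8 members with the smallest adjusted p were Rpl14, Rpl38, Rpl22l1, Rpl24, Rps19, Rpl37a, Rpl30 and Rpl27a, of which 7 belong to the large subunit. Rpl14 (ENSMUSG00000025794.9, chr9:120571444-120574654) had 15.4, 40.1 and 102 normalized counts in the lowest, median and highest TBP LOF embryo and 352, 484 and 808 in CONTROL. It stood at 10.2% of CONTROL, a log2 fold change of -3.29 ± 0.33 (SE) with an adjusted p = 1.26e-10, and at -2.38 under TMM (adjusted p = 2.48e-07). The row named as its pseudogene held 3508 reads over the 47 embryos beside 18453 on Rpl14 itself. With named pseudogene reads added, all 77 members called lower under ERCC scaling kept their call. Rpl38 (ENSMUSG00000057322.12, chr11:114668524-114672331), whose loss causes skeletal patterning defects in the mouse, had 10.99, 49.2 and 118 counts against 221, 479.5 and 663 and stood at 12.7% of CONTROL (log2 fold change -2.97 ± 0.34, adjusted p = 1.49e-09). Neither gene overlapped between the groups.

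Rpl24 (ENSMUSG00000098274.7, chr16:55966275-55971435), the gene of the Belly spot and tail mutant mouse, had 13.8, 60.8 and 153 counts in TBP LOF and 385, 465.8 and 1000.2 in CONTROL embryos (13.3% of CONTROL, adjusted p = 8.67e-09). Rps19 (ENSMUSG00000040952.16, chr7:24884371-24889806), mutated in many patients with Diamond-Blackfan anaemia, had 96.0, 228 and 482 counts against 1038, 1279 and 2555 (17.7%, adjusted p = 1.68e-08). Rpl37a, Rpl30 and Rpl27a, all of the large subunit, were at 15.9%, 18.5% and 22.7% of CONTROL. In each of these 5 genes the highest TBP LOF embryo was under the lowest CONTROL embryo, and under TMM their log2 fold changes ranged from -2.01 to -1.24.

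The 8 RP genes with the most reads in CONTROL embryos included 2, Rplp0 and Rps27l, that did not pass the test under ERCC scaling. Ordered by CPM averaged over mIgG CONTROL embryos, the 7 reported here were Rplp2 (938 CPM), Rplp0 (922), Rps29 (815), Rplp1 (740), Rps26 (740), Rps19 (615) and Rps27l (566). Per kilobase of annotated exon the order changed to Rplp1 (1484), Rps29 (1175), Rps27l (694) and Rplp0 (556), although counts of 5' ends need not scale with transcript length. Neighbours in these orders were not tested against each other. Rps29 had 157, 450 and 850 normalized counts in TBP LOF against 1286, 2005 and 2112 in CONTROL, without overlap (log2 fold change -1.96, adjusted p = 1.12e-06). Its median was 361 CPM in TBP LOF, 802 CPM in mIgG CONTROL and 359 CPM in rIgG CONTROL embryos. For Rps29 the rIgG CONTROL embryos spanned 159 to 917 CPM and so overlapped TBP LOF (119 to 538 CPM). Rps26 was lower under ERCC scaling (-1.51, adjusted p = 5.93e-05) and did not pass the test under TMM (-0.57, adjusted p = 0.0979). Counted for each group separately, the 8 members with the most reads held 24.4% of RP reads in CONTROL and 32.9% in TBP LOF embryos.

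The acidic stalk of the large subunit, which recruits the GTPases of translation, is built from Rplp0, Rplp1 and Rplp2. Rplp0 had 1301, 1358 and 3225 counts in TBP LOF and 1378, 1806 and 3711 in CONTROL embryos. The groups overlapped, with a log2 fold change of -0.29 ± 0.29 under ERCC scaling (adjusted p = 0.499) and 0.60 under TMM (adjusted p = 0.046), and Rplp0 became the RP gene with the most CPM in TBP LOF embryos (1153 on average), as it was in FOXJ3 LOF (1256) and rIgG CONTROL embryos (1217). Rplp2, with 256, 824 and 1382 counts against 1501, 1982 and 3115, did not overlap and was at 37.9% of CONTROL (-1.40, adjusted p = 0.000175), though its -0.48 under TMM missed the threshold (adjusted p = 0.141). In CPM, Rplp2 of rIgG CONTROL embryos (457 to 1123) overlapped that of TBP LOF embryos (194 to 823). Rplp1 showed -1.18 under ERCC (adjusted p = 0.00234) and -0.29 under TMM (adjusted p = 0.456). Rplp0 was not tested against Rplp1 or Rplp2.

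Rpl5 and Rpl11 bind the 5S rRNA and, outside the ribosome, the p53 inhibitor MDM2. Rpl5 had 38.1, 72.9 and 113 counts in TBP LOF and 214, 303 and 408 in CONTROL embryos, with no overlap, and stood at 24.1% of CONTROL (-2.05, adjusted p = 2.36e-07). Rpl11 had 58.6, 138 and 306 counts against 404, 500.1 and 664 (-1.79, adjusted p = 4.63e-06). Rps6, the small-subunit protein phosphorylated by the S6 kinases, had 109, 262 and 445 counts against 717, 1018 and 2058 (-2.04, adjusted p = 8.89e-07). Rpsa, also known as the laminin receptor, overlapped between groups (33.6, 107 and 374 counts against 113, 307 and 488) and was lower with a log2 fold change of -1.07 (adjusted p = 0.0173) under ERCC scaling, but did not pass the test under TMM (-0.38, adjusted p = 0.416).

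**Figure D3:**
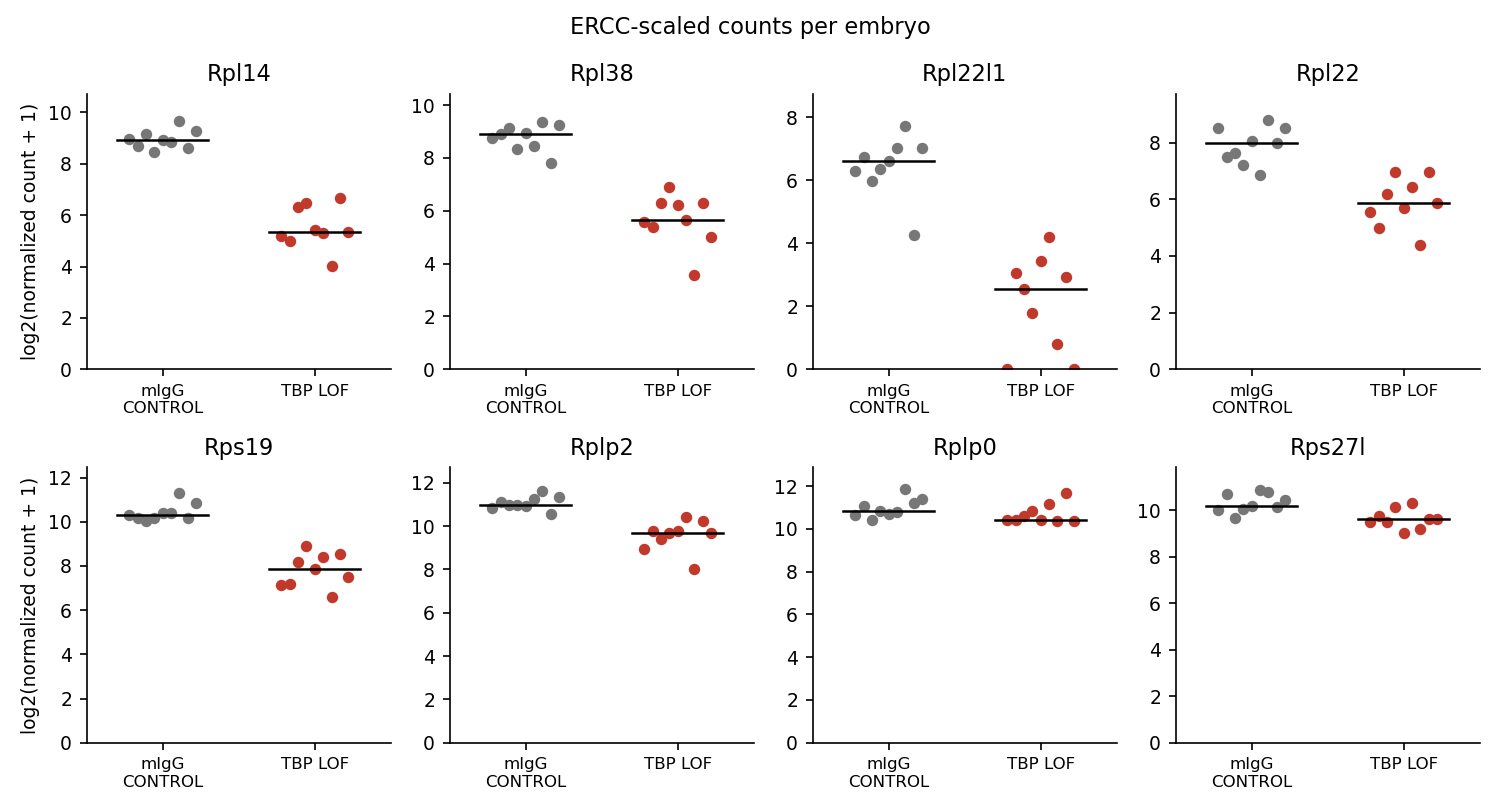
ERCC-scaled counts of 8 RP genes in each mIgG CONTROL (grey) and TBP LOF (red) embryo on a log2(normalized count + 1) axis, with the group median as a line. Rpl14, Rpl38, Rpl22l1, Rpl22, Rps19 and Rplp2 separate the groups or nearly so, whereas Rplp0 and Rps27l overlap.

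Several RP genes have a paralog of restricted or unequal use, and the share of the paralog in the pair was lower in TBP LOF for some pairs and higher for others. Rpl22l1 (ENSMUSG00000039221.10, chr3:28805436-28807424) had 0, 4.90 and 17.5 counts in TBP LOF and 18.3, 97.0 and 210.0 in CONTROL embryos, without overlap, the largest fitted change of the 83 (-4.32 ± 0.50, adjusted p = 3.03e-09; -3.43 under TMM). Rpl22, its partner, was at 26.1% of CONTROL (19.8, 57.5 and 125 counts against 116, 251 and 442; -1.94, adjusted p = 4.94e-06), so that Rpl22l1 made up 27.1% of the CPM of the pair in CONTROL and 6.94% in TBP LOF embryos. Rpl10l, an autosomal retrocopy of the X-linked Rpl10 known from the testis, was lower (14.7, 47.9 and 92.6 counts against 107, 191 and 393; -2.25, adjusted p = 7.35e-07). Rpl10 did not pass the test (123, 316 and 554 counts against 390.1, 457 and 944; -0.71 under ERCC, adjusted p = 0.0634, and 0.11 under TMM), and the share of Rpl10l in the pair went from 29.3% to 12.7%. Likewise Rpl39l (-2.12, adjusted p = 2.65e-05) made up 43.2% of its pair with Rpl39 (-0.95, adjusted p = 0.0227) in CONTROL and 25.7% in TBP LOF. Under TMM Rpl39 did not pass the test (-0.12, adjusted p = 0.8004).

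In the pair of Rps27l, known as a target of p53, and Rps27, the share of the paralog was higher in TBP LOF embryos (77.7%, against 61.8% in CONTROL). Rps27l had 518, 775 and 1250 counts against 805, 1139 and 1885, with a log2 fold change of -0.68 ± 0.28 under ERCC (adjusted p = 0.0573) and 0.23 under TMM, while Rps27 was lower under ERCC (-1.83, adjusted p = 0.000125) and did not pass under TMM (-0.97, adjusted p = 0.0551). The share of Rpl7l1 beside Rpl7 was 38.8% and 42.1%, and both genes were lower under ERCC (-1.34 and -1.56, adjusted p = 0.000595 and 0.000111) but not under TMM (-0.47 and -0.66, adjusted p = 0.153 and 0.0782). Rpl3l, best known from striated muscle, had few reads (0, 6.76 and 16.4 counts against 1.81, 18.5 and 33.7; -1.31 ± 0.56, adjusted p = 0.0685), and Rpl3 was lower under ERCC (-1.11, adjusted p = 0.00613). Rps4x, encoded on the X chromosome, was lower as well (-1.47, adjusted p = 0.000709). Under TMM neither Rpl3 (-0.16, adjusted p = 0.748) nor Rps4x (-0.64, adjusted p = 0.123) passed the test. Differences between the partners of a pair were not tested, and reads of near-identical copies could have been divided between them during counting. Rows named as RP pseudogenes held 1.32% to 4.80% as many reads as the RP genes in each embryo. These rows carry the symbol of a member followed by -ps, so copies named otherwise were not counted. Members differed in this, with 1419 such reads over the 47 embryos beside 6283 on Rpl3, and 13 beside 14052 on Rpl7.

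The 6 members not lower under ERCC scaling were Rps27l, Rpl10, Rpl3l, Rplp0, Rpl41 and Rps2, the last 2 named here after their values had been seen. Under some alternatives Rps27l, Rpl10, Rpl3l or Rps2 passed the test as lower, whereas Rplp0 and Rpl41 passed it as lower in none of the alternatives run. Rpl41, which encodes a very short basic peptide of the large subunit, had 134, 237 and 449 counts in TBP LOF and 187, 284 and 429 in CONTROL embryos (-0.28 under ERCC, adjusted p = 0.502, and 0.58 under TMM, adjusted p = 0.0551). Rps2 had 66.7, 249.96 and 444 counts against 90.0, 217 and 821 (-0.35 under ERCC, adjusted p = 0.504, and 0.66 under TMM, adjusted p = 0.208). Rows named as Rps2 pseudogenes held 15220 reads over the 47 embryos beside 20571 on Rps2 itself, so its value is uncertain.

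For the genes with TATAA before the start, the log2 fold changes under ERCC scaling were -4.32 (Rpl22l1), -2.15 (Rps18), -1.85 (Rps9), -1.83 (Rps27) and -1.51 (Rps26), with a median of -1.85, and the 58 promoters without it had a median of -1.75. With TATAA sought on either strand of the 300 bases, 18 promoters held it (28.6%, beside 28.0% of all promoters), those of Rpl10, Rps2 and Rplp0 among them, and the medians with and without it were -1.71 and -1.79. The medians of genes with and without the C or T run were -1.76 and -1.83, and those with and without CCGGAA -1.79 and -1.73. The medians with and without a motif were not tested against each other. Rpl41, Rplp0 and Rpl22 lacked both capitalised features in the stretches printed above.

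Genes related to the ribosome are set beside the members by list, where 29.7% of all features and 61.2% of those with a mean of at least 100 counts were lower under ERCC scaling. Of 20 other mRNAs that carry a TOP start or belong to the ribosome, 18 were lower under ERCC scaling and 0 higher (median -1.47), including Fau (-2.13), Rpl36al (-2.02) and the ribosomal scaffold Rack1 (-1.88). Eef1a1, which delivers aminoacyl-tRNA to the ribosome, and Tpt1, a TOP mRNA of a small calcium-binding protein, were at -0.27 and -0.08 (adjusted p = 0.524 and 0.869), and under TMM both were higher (0.68 and 0.76, adjusted p = 0.0332 and 0.00334). Of 7 chaperones dedicated to single ribosomal proteins, 6 were lower (median -2.001), among them Tsr2 (-2.97), which binds Rps26, Pdcd2 (-2.49), which binds Rps2, and Grwd1 (-2.42), which binds Rpl3. Bccip, a chaperone of Rpl23, was at 0.06 (adjusted p = 0.936). Of 15 regulators of RP transcription or TOP mRNA translation, 10 were lower (66.7%, median -1.02), with Myc at -4.46, Rps6kb2 at -2.56, Gabpa at -2.24 and Larp1, which binds the TOP start, at -1.80. Mtor (-0.84, adjusted p = 0.0659), Eif4ebp2 (-0.67, adjusted p = 0.116), Larp4b (-0.65, adjusted p = 0.132), Rptor (-0.44, adjusted p = 0.523) and Mycn (-0.29, adjusted p = 0.852) did not pass the test. Under TMM 12 of the 20 related mRNAs were lower and 2 higher, and 5 of the 7 chaperones and 6 of the 15 regulators (median -0.18) were lower with 0 higher. Of all features, 12.7% were then lower and 12.8% higher, and of those with at least 100 counts 31.9% and 24.8%.

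For comparison, 51 of 78 mitochondrial RP genes (65.4%, median -1.39) and 30 of 38 proteasome subunit genes (78.9%, median -1.62) were lower under ERCC scaling, and 0 of either list higher, beside the same 29.7% of all features and 61.2% of those with at least 100 counts. Under TMM the counts were 26 lower and 3 higher for the mitochondrial RP genes (median -0.49) and 19 lower and 0 higher for the proteasome (median -0.76). Of all features, 12.7% were lower and 12.8% higher under TMM, and of those with at least 100 counts 31.9% and 24.8%. The large-subunit (47 of 51, median -1.77) and small-subunit members (30 of 32, median -1.82) were close to each other under ERCC scaling. Under TMM 33 and 23 of them were lower, beside the same 12.7% of all features and 31.9% of those with at least 100 counts. No list was tested against another.

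**Figure D4:**
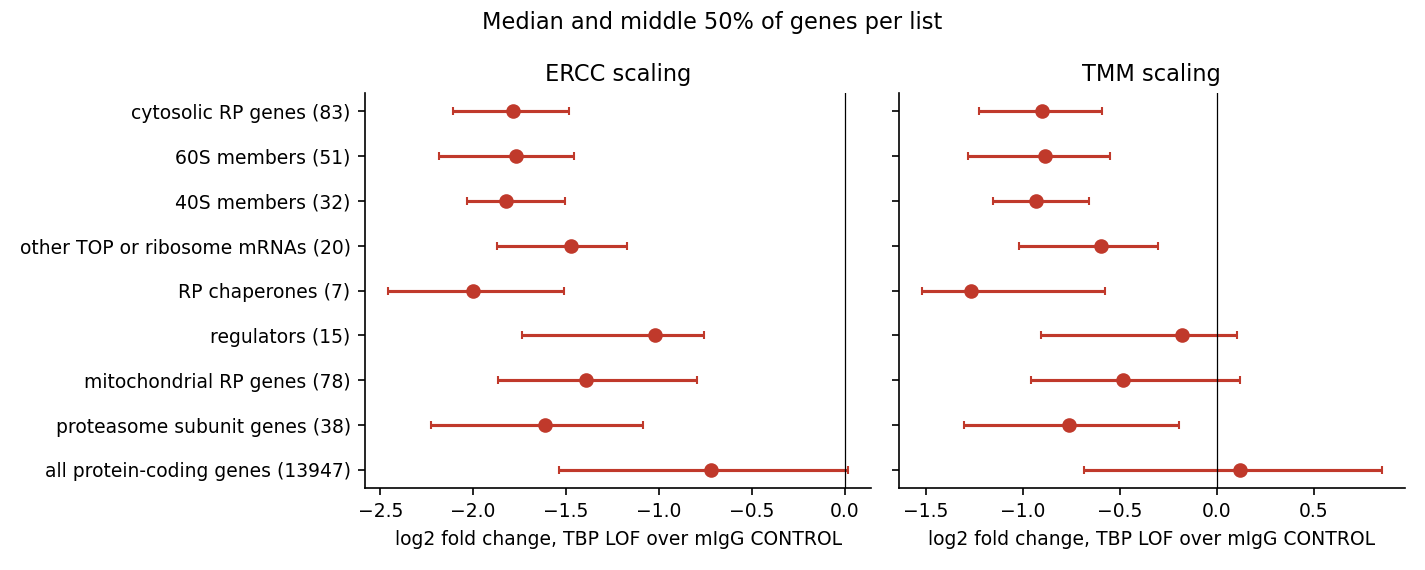
Median log2 fold change (points) and middle 50% of genes (bars) for each gene list in TBP LOF over mIgG CONTROL embryos, under ERCC scaling (left) and TMM scaling (right), with the number of genes tested in brackets and 60S and 40S standing for the large and small subunit. The RP genes have a median of -1.79 under ERCC and -0.90 under TMM, below the median of all protein-coding genes (-0.72 and 0.12).

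In FOXJ3 LOF embryos no RP gene passed the test. Under TMM scaling with library batch as a covariate, edgeR called 0 of 83 members lower and 0 higher, where 0.0102% of 19517 features were lower and 0% higher, 4 members had an unadjusted p under 0.05 (beside 1059 of 18626 genes), and DESeq2 called 0 as well with 4 at an unadjusted p under 0.05. The log2 fold changes ran from -0.31 to 0.58 with a median of 0.14, and 76 were above 0. Under ERCC scaling the median was 0.31, beside 0.15 for all genes, with 0 called and 6 at an unadjusted p under 0.05 (beside 861 of 18626 genes). The RP genes held 2.34% ± 0.689 of counted reads in FOXJ3 LOF (SD, n = 16; lowest 1.47%, median 2.26%, highest 3.67%) and 2.22% ± 0.746 in rIgG CONTROL embryos (SD, n = 13; lowest 0.734%, median 2.24%, highest 3.44%), with broad overlap.

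The members with the smallest p in FOXJ3 LOF embryos were Rpl10a, Rpl10l and Rpl30 above 0 and Rps27l, Rps26 and Rpl35 below it. Rpl10a had 151, 562 and 992 normalized counts in FOXJ3 LOF and 133, 388 and 606 in rIgG CONTROL embryos (0.54 ± 0.19, adjusted p = 0.745). Rpl10l had 202, 301 and 435 against 21.9, 229 and 293 (0.58 ± 0.21, adjusted p = 0.748), and Rpl30 144, 344 and 494 against 86.4, 239 and 314 (0.43 ± 0.17, adjusted p = 0.789). Rps27l had 802, 1128 and 1734 against 918, 1313 and 1952 (-0.31 ± 0.14, adjusted p = 0.86). The groups overlapped in each of these 4 genes.

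The FOXJ3 values were also taken within each batch. In batch 1 alone the RP share was 2.81% ± 0.545 in LOF (n = 9) and 2.30% ± 0.988 in CONTROL embryos (n = 7), and the median log2 fold change over the members was 0.40. In batch 2 alone it was 1.75% ± 0.2504 (n = 7) and 2.13% ± 0.383 (n = 6), with a median of -0.17 and 70 members below 0. No member passed the test in either batch. In batch 1, 16 members had an unadjusted p under 0.05, beside 1631 of 19791 genes, and in batch 2, 10 did, beside 983 of 18029 genes. Rpl10a (0.88 and 0.12), Rpl10l (0.73 and 0.38) and Rpl30 (0.72 and 0.05) were above 0 in both batches and Rps27l (-0.35 and -0.29) below 0 in both. A term for the difference between batches, added after the data had been seen, called 0 members (0% of all features), with 18 at an unadjusted p under 0.05 beside 1553 of 19517 features, a median of -0.60 and a lowest adjusted p of 0.554, so that a difference between batches was not shown for any member. Under ERCC scaling the median over the members was 0.63 in batch 1, where 20 members had an unadjusted p under 0.05 beside 1309 of 19791 genes, and -0.064 in batch 2, where 1 did beside 709 of 18029 genes. The term for the difference between batches then had a median of -0.69 and a lowest adjusted p of 0.825, with 0 members called and 6 at an unadjusted p under 0.05 beside 1045 of 19517 features. A single CONTROL embryo of batch 1, number 3, had the lowest share (0.734%), and without it the median over the members under both batches was 0.05 instead of 0.14.

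The TBP LOF and FOXJ3 LOF effects, each measured against its own CONTROL embryos, differed in 79 of the 83 RP genes under ERCC scaling when the difference itself was tested, all 79 lower in TBP LOF, where 28% of 19657 features were lower and 0.911% higher. The median difference was -2.16 on the log2 scale. Under TMM 55 were lower and 0 higher (10.9% and 10.7% of features), with a median of -1.05, and all 55 were among the 79. Rpl22l1 (-4.91), Rpl14 (-3.51), Rpl38 (-3.21) and Rpl10l (-3.04) had the most negative differences of the members named here. The experiments also differed in antibody species and library preparation, which cannot be told apart from the protein targeted.

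**Figure D5:**
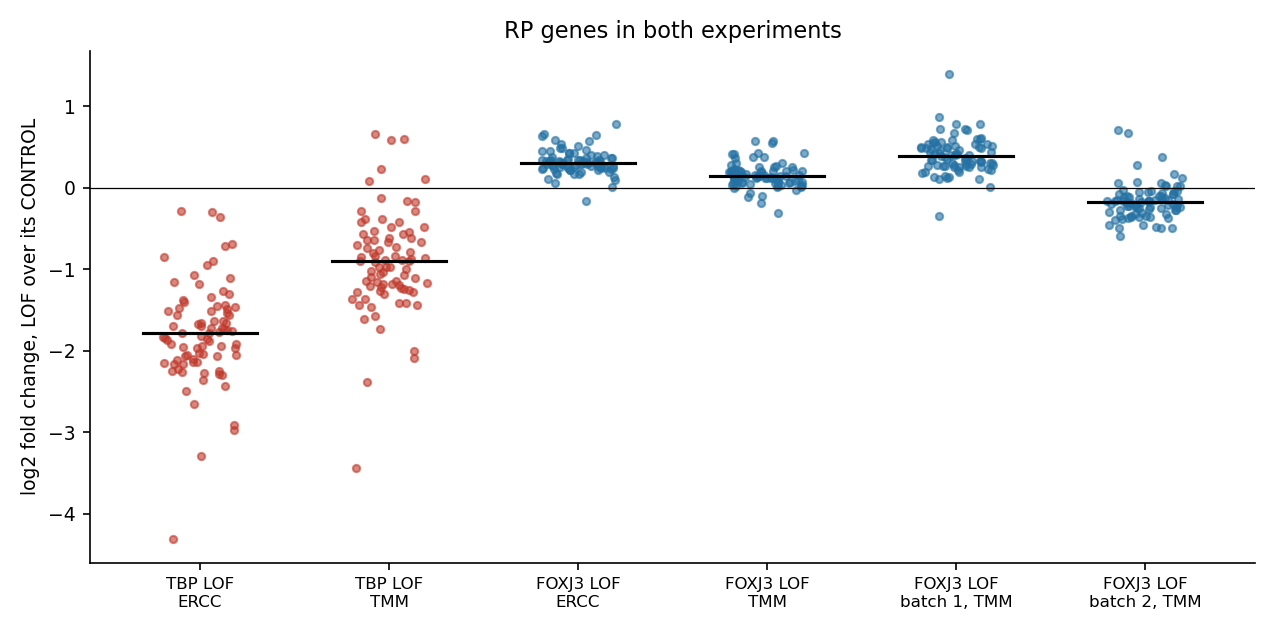
Log2 fold change of each RP gene (points) and their median (line) in TBP LOF and FOXJ3 LOF embryos over their own CONTROL embryos, under ERCC and TMM scaling and, for FOXJ3 LOF, within each batch. The median is -1.79 and -0.90 in TBP LOF and 0.31 and 0.14 in FOXJ3 LOF, with 0.40 in batch 1 and -0.17 in batch 2.

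The spread between embryos was widest for single RP genes in TBP LOF. The median coefficient of variation of the members' CPM was 52.3% in TBP LOF and 24.0% in mIgG CONTROL, and 36.1% and 43.0% in FOXJ3 LOF and rIgG CONTROL. Member means ran from 3.36 CPM (Rpl22l1) to 1153 CPM (Rplp0) in TBP LOF and from 7.29 CPM (Rpl3l) to 938 CPM (Rplp2) in mIgG CONTROL embryos, with medians of 121 and 244 CPM. Between 82 and 83 members had a read in each TBP LOF embryo and 83 in each embryo of the other groups.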

How the data were processed

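Smart-seq+5' libraries of 49 single embryos were analysed. The authors trimmed reads with Trimmomatic, aligned them to GRCm38 by STAR 2.7.11a and used TEcount with gencode M20 to count the 5' reads of genes, TE families and ERCC transcripts, so that the deposited values are estimated counts without normalization. All were whole numbers. Neither the treatment of multi-mapping reads nor the strand setting was stated in the material used, which leaves overlapping genes and near-identical copies uncertain.

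Quality control required 500000 counted reads, 1000 detected genes, no more than 10% mitochondrial and no more than 15% ERCC reads. Features with at least 1 read in 25% of embryos were tested with edgeR 4.0.16 in R 4.3.3 (quasi-likelihood, two-sided), and p-values were adjusted by Benjamini-Hochberg over all features, with calls under 0.05. Size factors were medians of ratios over 42 ERCC transcripts for TBP. The FOXJ3 fit used TMM and the library batch, and the difference of both effects was fitted to all 47 embryos with ERCC size factors. Standard errors came from the F statistic. DESeq2 1.42.0, other scalings, filters and left-out embryos were alternatives. The spread between embryos was used throughout, because PCR reads lacking molecular identifiers do not count molecules. No pair of libraries was identical over all genes.

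Members, gene lists and tests were chosen with earlier results of these data known. Members named in the text are the 8 lower members of smallest adjusted p in TBP LOF and the 8 with the most CPM in mIgG CONTROL. The first rule also asked for the 8 higher members, but 0 were higher under ERCC scaling. Also named are the paralogs Rpl3l, Rpl7l1, Rpl10l, Rpl22l1, Rpl39l and Rps27l with their partners and Rps4x (Rps4l is not a member). The stalk genes and Rpsa, Rpl5, Rpl11 and Rps6 were added, and the 3 with the smallest p in each direction in FOXJ3 LOF. Rps18, Rps9, Rps20, Rpl36a, Rpl41 and Rps2 were named outside these rules, after their values were seen. Of the genes that these rules and lists give, 1 RP gene and 1 related mRNA are not reported here, but both stay in the counts and medians. Markers of morula and blastocyst summed to at most 36.8 CPM. Promoters are RefSeq windows of 300 bases (GRCm38.p6). The motifs were TATAA and CCGGAA on the strands stated, and runs of C or T on the sense strand. The tests were tried first on simulated counts under TMM scaling, without an overall shift. ERCC scaling was not tried in this way.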

Additional observations from a re-analysis of the deposited data

Results flagged for a closer look

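Of 98 groups of 6 to 9 embryos tested for an embryo far from the others, 5 had one, where chance flags about 1 in 20. The same embryos recur in these groups from gene to gene, so the 98 tests are not independent. In mIgG CONTROL, embryo 8 was highest for Rpl24 (1000.2 normalized counts, the others 385 to 610) and Rps6 (2058, the others 717 to 1284), and embryo 3 was highest for Rpl10 (944, the others 390.1 to 647). In TBP LOF, embryo 10 was highest for Rplp0 (3225, the others 1301 to 2271). In batch 2 of rIgG CONTROL, embryo 2 was lowest for Rpl30 (207, the others 235 to 249).

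The TBP LOF and FOXJ3 LOF effects differed under ERCC scaling for 79 members and for 29 of the 31 named members, of which 16 also differed under TMM. The tested log2 differences (TBP LOF effect minus FOXJ3 LOF effect) of large-subunit genes were -3.51 for Rpl14, -3.21 for Rpl38, -4.91 for Rpl22l1, -3.01 for Rpl24, -3.00 for Rpl37a, -3.01 for Rpl30, -2.57 for Rpl27a, -2.19 for Rpl5, -2.25 for Rpl11, -2.16 for Rpl10a and -1.50 for Rpl35. In the stalk they were -1.69 for Rplp2 and -1.45 for Rplp1. Among small-subunit genes they were -2.71 for Rps19, -2.23 for Rps29, -1.53 for Rps26, -2.30 for Rps6, -2.17 for Rps27, -1.81 for Rps4x and -1.72 for Rpsa. Among paralogs and their partners they were -1.80 for Rpl3l and -1.48 for Rpl3, -1.58 for Rpl7l1 and -1.90 for Rpl7, -3.04 for Rpl10l and -0.98 for Rpl10, -2.39 for Rpl39l and -1.28 for Rpl39, and -2.11 for Rpl22.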

How the results depend on the processing

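Scaling moved the TBP LOF values most. Against a median over the members of -1.79 with 77 lower and 0 higher, TMM gave -0.90 with 56 lower and 1 higher. DESeq2 with its own size factors gave -0.89 with 58 lower and 2 higher. Of 18447 genes tested, 5497 were lower and 258 higher in the main fit, 2382 and 2437 under TMM, and 2536 and 2776 with DESeq2's own size factors. The remaining alternatives left between 77 and 79 members lower: DESeq2 with ERCC size factors, no filter, a stricter filter (82 members tested), all 19 embryos and added pseudogene reads. In the same order, 5662 of 18447, 6092 of 28073, 4056 of 7699, 5555 of 18553 and 5460 of 18364 genes were lower. Of the 6 members not called under ERCC scaling, DESeq2 with ERCC size factors and the stricter filter called Rps27l and Rpl10, all 19 embryos Rpl10 and Rpl3l, the replicate block Rps27l and Rpl3l, and added pseudogene reads Rps2. DESeq2 with ERCC size factors lost Rpl36a. Under TMM and DESeq2's own size factors, Rplp0 turned to 0.60 and 0.63, Rps27l to 0.23 and 0.26 and Rpl10 to 0.11 and 0.11. The median difference between the experiments was -1.05 under TMM, where Rplp0 (0.50), Rps27l (0.56) and Rpl10 (0.069) turned. In FOXJ3 LOF the median reversed in batch 2 alone to -0.17, or -0.064 with ERCC scaling. Rps26 turned to 0.015 under ERCC scaling, 0.013 in batch 1 and 0.30 in batch 1 with ERCC scaling, and Rpl35 to 0.064, 0.19 and 0.41. RP reads per ERCC read stood at 155% of CONTROL in batch 1 and 95.5% in batch 2. Beyond the scalings' own construction, the cause was not tested. Leaving out 1 embryo at a time gave 75 to 79 members lower, 0 to 0 higher and medians of -1.94 to -1.67 in TBP LOF, beside 4889 of 18088 to 5720 of 18182 genes lower. In FOXJ3 LOF it gave 0 to 0 called and medians of 0.05 to 0.18. Without mIgG CONTROL 3, Rpl39 lost its call, and Rpl36a and Rps20 lost theirs without several embryos. Embryos of the same number in LOF and CONTROL had correlations of deviations of -0.054 to 0.137 in TBP and -0.206 to 0.267 in FOXJ3. These values do not settle whether such embryos were collected together. With the number as a replicate block, 79 members were lower in TBP LOF (median -2.01), beside 4579 of 18447 genes, and 0 in FOXJ3 LOF (median 0.25).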

Other observations

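The 2 embryos that did not pass quality control, both by their number of counted reads, entered the comparisons only in the alternatives with all embryos. The mIgG CONTROL embryo 7 had 464300 counted reads, of which the RP genes held 3.44%, or 1.12 reads per ERCC read. The FOXJ3 LOF embryo 7 of batch 1 had 308682 counted reads, with an RP share of 1.86% and 0.758 reads per ERCC read. All 83 RP genes had reads in both.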
